A study of Mus musculus with 9 samples.

Results

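Oestradiol (E2) was compared with no oestradiol in osteoblasts that were also treated with doxycycline (dox). The comparison used 4 of the 9 arrays of the study, chosen by their titles: 2 arrays of dox plus E2 (labelled replicates 2 and 3) and 2 arrays of dox alone (replicates 1 and 2). The other 5 arrays, 3 of E2 alone and 2 of vehicle, gave the same hormone comparison without dox.

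The cells were NeMCO, primary osteoblasts from the calvaria (skull roof) of newborn mice, and in every group they carried a lentivirus that expresses the transcription factor RUNX2 when doxycycline is present. Cells of the dox plus E2 group received 500 ng/ml doxycycline and 10 nM E2, and cells of the dox group 500 ng/ml doxycycline alone, for 48 h. The E2 and vehicle groups had the same virus but no doxycycline, so RUNX2 induction was a treatment shared by both compared groups and not a difference between them. All cultures were in phenol red free medium, and its 20% serum had been stripped with charcoal to remove most steroid hormones. Total RNA was measured with Illumina mouse bead arrays, 1 array a sample. Nothing in the labels states that replicates were separate cultures or animals. A p-value here therefore reflects how far these samples spread, and that spread may be technical.

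The array descriptions place dox plus E2 and E2 on slide 2 and dox and vehicle on slide 1. Slide and oestradiol therefore changed together, and within this comparison they cannot be told apart. The dox arrays also differed from each other: dox replicate 2 had low levels of immediate early genes, so changes were computed with both dox arrays and against each of them alone.

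Oestradiol acts through oestrogen receptors, nuclear receptors that bind DNA at oestrogen response elements, and in bone it is known for restraining resorption, in part through osteoblast factors that control osteoclasts. RUNX2 is the transcription factor that commits cells to the osteoblast lineage. Immediate early genes such as Fos and Egr1 are transcribed within minutes of a stimulus without new protein synthesis, often through serum response factor bound at a CArG box, and their mRNAs are short-lived. CArG boxes also occur in genes of the contractile apparatus of heart and skeletal muscle.

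The deposited median bead signal was 162.9 and 164.1 on the dox plus E2 arrays, against 132.2 and 131.8 on the dox arrays. A detection p under 0.05, a rank of a probe against negative control beads, was reached by 11554 and 11958 probes of 25697 on the dox plus E2 arrays and by 11939 and 11900 on the dox arrays. After background correction and quantile normalization, 9490 genes had a probe detected on at least 2 of the 9 arrays and were tested, and all levels below are log2 normalized intensities of a gene's brightest probe. Across these genes the difference between replicates had an SD of 0.26 for dox plus E2 and 0.29 for dox. Both Runx2 probes were below background on all 9 arrays, so the array gave no check of the transgene, and the labels do not state whether these probes cover its RNA. Of 14 osteoblast markers, 8 were detected, with a summed normalized intensity of 88692 to 89307 in dox plus E2 and 92255 to 96400 in dox, while Ibsp, Dmp1 and Dlx5 were among those that joined Runx2 below background on the 4 arrays.

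Few genes passed the test between dox plus E2 and dox, and nearly all that did were lower with E2. At an adjusted p under 0.05 in limma, 22 of 9490 genes passed (0.232%), 2 higher (0.0211%) and 20 lower (0.211%) in dox plus E2. Of the 20 lower genes, 8 were listed heart and slow muscle genes and 4 were immediate early genes. The higher ones were Glis1 and Dio3. An unadjusted p under 0.05 was reached by 1029 genes (10.8%), 461 higher (4.86%) and 568 lower (5.99%).

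Over all genes tested the change was small. Its median was -0.0015 on the log2 scale, its SD 0.24, and the 1st and 99th percentiles were -0.66 and 0.60, while the median standard error of a change was 0.14. A fitted fall beyond 1 log2 unit was found for 22 genes and a rise beyond 1 for 2 genes. The largest rise, 1.07 for 4930544G11Rik, did not pass the test. The other was Edem1 (1.05), which was detected on 1 of the 2 dox arrays and is described with the dox arrays below. For genes below background on an array, such values are no estimate of size. The arrays of dox plus E2 and dox did not overlap for 3772 genes (39.7%), a share against which non-overlap in the genes below must be read, although all 22 genes that passed had it. Detection on both dox arrays and on neither dox plus E2 array was found for 144 genes, and the reverse for 78 genes.

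**Figure D1:**
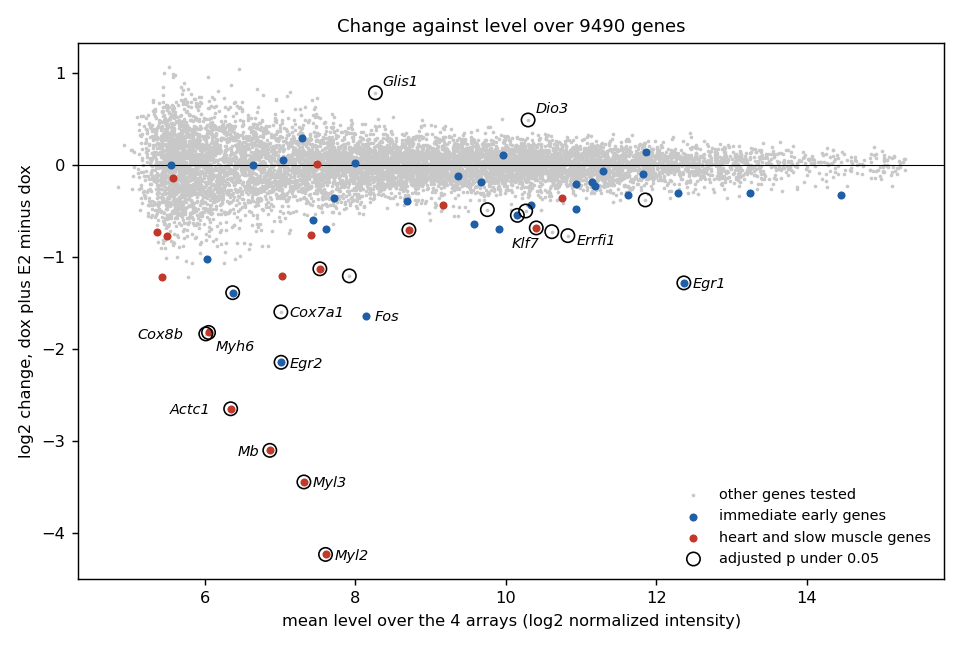
Each point is 1 of the 9490 genes tested, with its mean level over the 4 arrays on the x axis (log2 normalized intensity) and its log2 change, dox plus E2 minus dox, on the y axis; circled points passed at an adjusted p under 0.05. The heart and slow muscle genes Myl2, Myl3, Mb and Actc1 lie lowest, and Glis1 and Dio3 are the circled points above 0.

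Genes of heart and slow muscle contained the largest falls. Myl2 and Myl3, the regulatory and essential myosin light chains of the ventricle, Mb, the oxygen-storing myoglobin, and Actc1, the cardiac actin, were all lower in dox plus E2 than in dox. The gene lists used here and below were chosen with earlier results of these data known, so counts in them are a description. Of 30 genes listed for heart and slow muscle, 17 were tested, 8 fell and 0 rose, against 0.211% of all genes that fell. The median change of the 17 was -0.77 on the log2 scale, against -0.0015 over all genes, and 15 of the 17 were lower at an unadjusted p under 0.05, against 5.99% of all genes. The dox arrays differed here too: dox replicate 2 was below dox replicate 1 for 17 of the 17, with a median difference of -0.32. Of the 17, 8 were below background on both dox plus E2 arrays, so that they entered the test through other arrays. With these at the bound described below, or at 0 for Des, which has no such bound, the median was -0.71. Among the 8 listed genes detected on all 9 arrays 3 fell and 7 had a negative change.

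Myl2 had levels of 5.41 and 5.57 in dox plus E2, against 10.04 and 9.41 in dox. In the deposited bead signals this was 162.4 and 170.7 in dox plus E2, against 1013.1 and 634.9 in dox. The groups lay far apart and neither dox plus E2 array was above background. The log2 change was -4.24 ± 0.29 (SE; limma adjusted p = 1.07e-09). Because a level below background is only an upper limit, the fold is a bound: Myl2 was at least 16.4-fold lower in dox plus E2, where the bound sets the dox mean against the lowest detected signal on each dox plus E2 array or the probe's own signal, whichever was higher.

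Myl3 had levels of 5.96 and 5.23 in dox plus E2, against 9.41 and 8.68 in dox, a log2 change of -3.45 ± 0.27 (SE; limma adjusted p = 1.69e-08). It was detected on 1 of the 2 dox plus E2 arrays and on both dox arrays. Mb had 5.32 and 5.31 in dox plus E2, against 8.58 and 8.26 in dox, and was at least 6.62-fold lower (limma adjusted p = 9.87e-08). A second Mb probe, also below background on both dox plus E2 arrays, gave a log2 change of -1.86. Actc1 had 5.14 and 4.91 in dox plus E2, against 7.99 and 7.36 in dox, and was at least 3.95-fold lower (limma adjusted p = 8.91e-07). A second Actc1 probe was below background on all 9 arrays.

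Myh6, the alpha cardiac myosin heavy chain, had 5.30 and 4.98 in dox plus E2, against 7.24 and 6.69 in dox. It was at least 2.41-fold lower (limma adjusted p = 0.0011), and its second probe was below background on all arrays. Members detected on all 9 arrays fell as well. Fabp3, the heart fatty acid binding protein, had 7.0 and 6.93 in dox plus E2, against 8.26 and 7.94 in dox, a log2 change of -1.13 ± 0.19 (SE; limma adjusted p = 0.00221). Tnnc1, the troponin C of slow and cardiac muscle, had 8.43 and 8.29 in dox plus E2, against 9.26 and 8.87 in dox, a change of -0.71 ± 0.14 (SE; limma adjusted p = 0.0232). Ankrd1, a stretch-responsive cardiac ankyrin repeat protein, had 10.08 and 10.05 in dox plus E2, against 10.82 and 10.67 in dox, a change of -0.68 ± 0.10 (SE; limma adjusted p = 0.000521), and its second probe gave -0.59.

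The remaining listed members did not pass with both dox arrays, Ttn, Ckmt2 and Cox6a2 among them. Csrp3, a muscle LIM protein of the sarcomere, was below background on both dox plus E2 arrays and at least 1.27-fold lower there, a difference that did not pass (limma adjusted p = 0.0760). Of its other probes, also below background on both dox plus E2 arrays, one was detected on 1 of the 9 arrays and one on 0. The natriuretic peptide genes Nppa and Nppb had changes of -1.20 (limma adjusted p = 0.245) and -0.76 (limma adjusted p = 0.142). Atp2a2, the calcium pump of the sarcoplasmic reticulum, had a change of -0.35, and Des and Myl4 had changes of -0.14 and 0.02. Des was below background on both dox plus E2 arrays, so its value is no estimate of size. Myl7, Actn2, Tnni1, Tnni3, Tnnt1, Myh7, Pln, Ryr2, Mybpc3, Casq2, Ckm and Sln were below background on all 4 arrays.

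Cox7a1, Cox8b and Lpl, which are not in the heart and slow muscle list, were named by the size of their change and also fell. Cox7a1 and Cox8b are muscle isoforms of cytochrome c oxidase subunits. Cox7a1 had 6.35 and 6.08 in dox plus E2, against 7.87 and 7.76 in dox, a log2 change of -1.60 ± 0.20 (SE; limma adjusted p = 4.21e-05). Cox8b had 5.08 and 5.12 in dox plus E2, against 7.26 and 6.60 in dox, and was at least 2.37-fold lower (limma adjusted p = 0.000521). Lpl, the lipoprotein lipase that supplies fatty acids to muscle and fat, had 7.16 and 7.48 in dox plus E2, against 8.77 and 8.28 in dox, a change of -1.21 ± 0.19 (SE; limma adjusted p = 0.00139).

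The summed normalized intensity of the 17 tested heart and slow muscle genes was 4017 and 4026 in dox plus E2, against 8701 and 6948 in dox. In bulk RNA, fewer cells of a type and less RNA per cell cannot be told apart, and the part of other cells in these falls was not tested. Skeletal muscle markers had 5 of 16 members tested and 0 called by limma, with Acta1 (-0.55) and Eno3 (-0.39) lower at an unadjusted p under 0.05. Their sum was 376.2 to 378.9 in dox plus E2 and 451.9 to 544.2 in dox, with Myod1, Mylpf, Myl1, Tnnt3, Tnnc2, Myh1, Myh2, Myh4 and Pygm below background on the 4 arrays. Smooth muscle markers had 7 of 9 tested and 0 called or at an unadjusted p under 0.05, with sums of 39701 to 41157 in dox plus E2 and 37456 to 38190 in dox. Adipocyte markers had 2 of 11 tested, Lpl and Pparg, and Adipoq, Fabp4, Cebpa, Plin1 and the other listed genes were below background on the 4 arrays.

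Promoter sequences of the muscle genes were searched for the CArG box, CC and GG with 6 bases of A or T between them, on both strands of RefSeq windows (build GRCm38.p6) from 250 bases before to 50 bases after an annotated start. Windows existed for 20 of the 22 genes that passed, and not for Egr1 and Lpl. Of the 20, 3 held a CArG box, the muscle genes Actc1 and Myl3 and the immediate early gene Egr2. The box was in 535 of 32851 windows (1.63%) and in a window of 130 of 7310 tested genes (1.78%). The box of Myl3 began 85 bases before the start and that of Actc1 47 bases before it. The 250 bases before the start of each are shown because these genes had 2 of the 4 largest fitted falls, with the CArG box in capitals.
Myl3, chr9:110763428-110763677 (plus strand): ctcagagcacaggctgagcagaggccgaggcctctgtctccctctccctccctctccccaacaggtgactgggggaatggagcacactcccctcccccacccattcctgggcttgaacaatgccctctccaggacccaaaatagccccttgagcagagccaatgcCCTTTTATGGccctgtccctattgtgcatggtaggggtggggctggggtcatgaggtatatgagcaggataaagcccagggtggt
Actc1, chr2:114052876-114053125 (minus strand): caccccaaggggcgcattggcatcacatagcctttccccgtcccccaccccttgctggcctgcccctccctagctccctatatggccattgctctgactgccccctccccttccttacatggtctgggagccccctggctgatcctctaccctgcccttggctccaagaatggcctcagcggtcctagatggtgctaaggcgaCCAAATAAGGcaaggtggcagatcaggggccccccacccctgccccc
A match describes these letters and is not a measured site. The oestrogen response element, GGTCA and TGACC with 3 bases of any kind between them, was in 23 of all windows (0.07%) and in 0 of the 20 genes, the MEF2 site in 1047 windows (3.19%) and 0 of the 20. The cyclic AMP response element TGACGTCA was in 588 windows (1.79%), in a window of 262 of the 7310 tested genes (3.58%), and in Errfi1 and Plk2 of the 20.

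**Figure D2:**
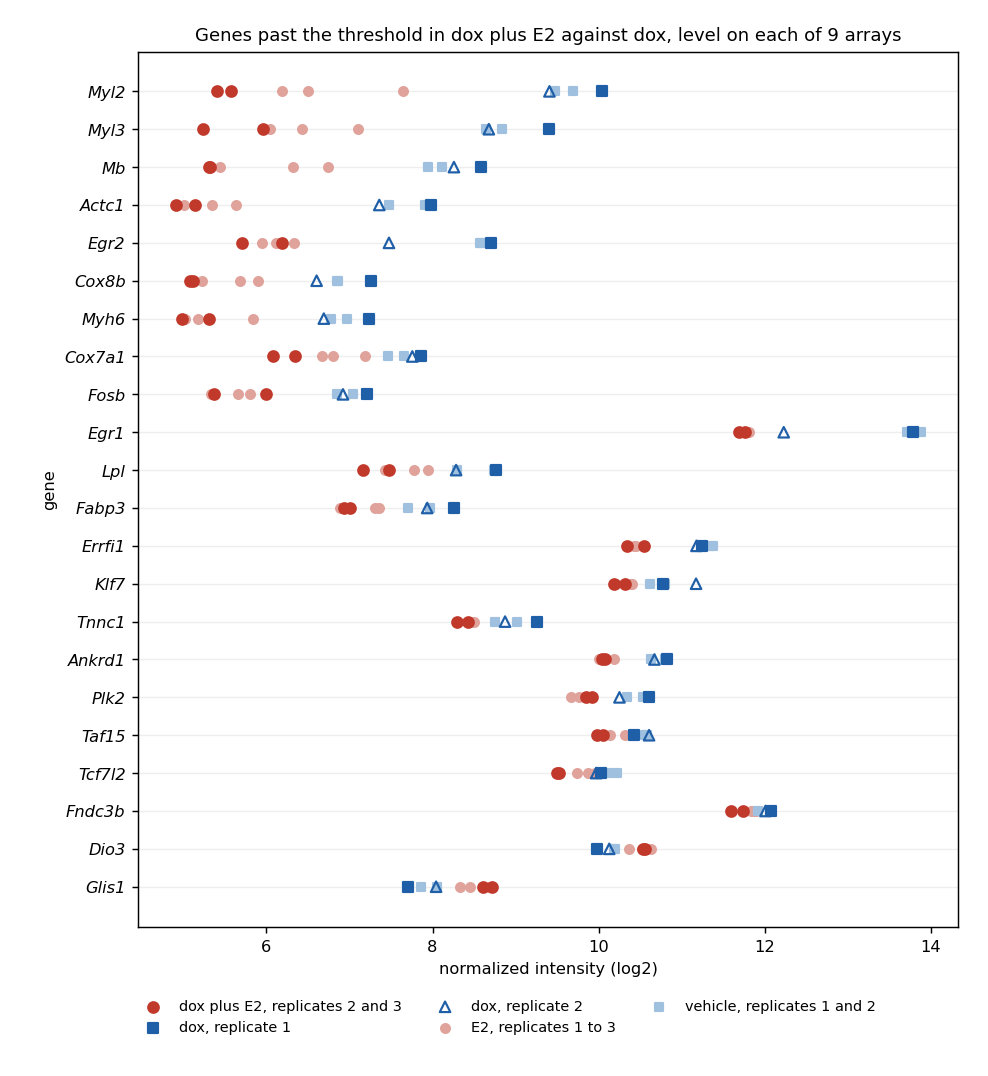
Level of each of the 22 genes that passed (rows, ordered by log2 change) on each of the 9 arrays, as log2 normalized intensity on the x axis; dark red circles are the dox plus E2 arrays, the dark blue square is dox replicate 1 and the open triangle dox replicate 2, and pale symbols are E2 and vehicle. For Myl2 the dox plus E2 arrays lie at 5.41 and 5.57 and the dox arrays at 10.04 and 9.41, and for Egr1 the open triangle lies at 12.23, below the square at 13.78.

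Immediate early genes were the second group that was lower in dox plus E2, and another in which the dox arrays differed. Egr2 and Egr1, zinc finger transcription factors, Fosb, a subunit of the AP-1 transcription factor, and Plk2, a stress-responsive kinase, fell. Of 44 listed immediate early genes, 32 were tested, 4 fell and 0 rose, against 0.211% of all genes that fell. Their median change was -0.31 on the log2 scale, and 19 of the 32 were lower at an unadjusted p under 0.05, against 5.99% of all genes. Of the 32, 29 were detected on all 9 arrays.

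Egr2 had 6.18 and 5.70 in dox plus E2, against 8.70 and 7.48 in dox, a log2 change of -2.15 ± 0.27 (SE; limma adjusted p = 4.17e-05). Fosb had 5.99 and 5.37 in dox plus E2, against 7.21 and 6.92 in dox, a change of -1.39 ± 0.25 (SE; limma adjusted p = 0.00858), and was detected on 1 of the 2 dox plus E2 arrays. In both genes the groups did not overlap, and dox replicate 2 was the lower dox array. Egr1 had 11.76 and 11.69 in dox plus E2, against 13.78 and 12.23 in dox, a change of -1.28 ± 0.24 (SE; limma adjusted p = 0.00886). Plk2 had 9.92 and 9.84 in dox plus E2, against 10.61 and 10.25 in dox, a change of -0.55 ± 0.12 (SE; limma adjusted p = 0.0395).

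Fos, the founding AP-1 subunit, showed how far the dox arrays were apart. It had 7.32 and 7.33 in dox plus E2, against 10.41 and 7.52 in dox. The deposited signals were 283.1 and 301.8 in dox plus E2, against 1279.5 and 242.4 in dox. The dox plus E2 arrays were close together, dox replicate 1 was far above them and dox replicate 2 was near them, and the change of -1.64 ± 0.44 (SE) did not pass (limma adjusted p = 0.129). Zfp36, which destabilises AU-rich mRNAs, had 9.27 and 9.25 in dox plus E2, against 10.62 and 9.19 in dox. Here dox replicate 2 was below both dox plus E2 arrays, and the change of -0.64 ± 0.23 (SE) did not pass (limma adjusted p = 0.294). Junb, another AP-1 subunit, had 9.54 and 9.58 in dox plus E2, against 10.67 and 9.84 in dox, a change of -0.69 ± 0.16 (SE; limma adjusted p = 0.0815).

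Other immediate early genes did not pass. Dusp1, a phosphatase of MAP kinases, had a change of -0.31 ± 0.10 (SE; limma adjusted p = 0.213). Ier3 had 11.96 and 11.91 in dox plus E2, against 12.00 and 11.59 in dox, a change of 0.14 (limma adjusted p = 0.653). Jund, Nr4a2, Egr3 and Myc had changes between 0.0030 and 0.05 and Maff of 0.29, and 0 of these passed. Ier2 was not tested here. Srf, the serum response factor itself, had 10.08 and 10.16 in dox plus E2, against 10.59 and 10.51 in dox, a change of -0.43 ± 0.10 (SE) just outside the threshold (limma adjusted p = 0.0631).

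Of the 26 tested immediate early genes with a RefSeq window, Egr2, Srf and Zfp36 held a CArG box (1.78% of tested genes), Jun, Klf2 and Nr4a2 the MEF2 site (2.05% of tested genes), and Dusp1, Maff and Plk2 the cyclic AMP response element (3.58% of tested genes). The box of Egr2 began 72 bases before the start shown, 1 of 5 annotated, and that of Zfp36 58 bases before its start. The windows of Egr2 and Zfp36 are shown, up to the start and with the CArG box in capitals, because dox replicate 2 lay between the groups for Egr2 and below the dox plus E2 arrays for Zfp36.
Egr2, chr10:67537619-67537868 (plus strand): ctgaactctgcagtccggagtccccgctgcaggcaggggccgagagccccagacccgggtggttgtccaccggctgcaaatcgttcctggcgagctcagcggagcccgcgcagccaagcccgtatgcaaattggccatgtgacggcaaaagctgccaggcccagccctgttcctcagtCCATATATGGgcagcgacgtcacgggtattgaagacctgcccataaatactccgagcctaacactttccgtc
Zfp36, chr7:28379229-28379478 (minus strand): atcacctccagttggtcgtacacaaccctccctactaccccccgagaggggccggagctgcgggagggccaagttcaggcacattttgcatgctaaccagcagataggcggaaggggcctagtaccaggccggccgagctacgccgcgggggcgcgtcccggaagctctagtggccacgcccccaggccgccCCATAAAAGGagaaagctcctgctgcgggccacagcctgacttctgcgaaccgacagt

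The low immediate early genes of dox replicate 2 were measured against dox replicate 1. Dox replicate 2 was below dox replicate 1 for 28 of the 32 genes, with a median difference of -0.30 on the log2 scale. Between the other pairs of replicates of a group the median was 0.03 to 0.09. For 9 of the 32 genes the difference was below -0.5, and over all 9490 genes the median difference between the dox arrays was -0.02.

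Without dox replicate 2, 16 of the 32 immediate early genes were lower in dox plus E2 with a median change of -0.44, against 0.653% of all genes called lower in that fit. Without dox replicate 1, Egr2 and Egr1 were lower, 2 of the 32, with a median of -0.19, against 0.105% of all genes. The 16 genes lower without dox replicate 2 were chosen by their call against dox replicate 1 alone, which favours genes high on that array. The following values therefore describe them and support nothing. For the 16 genes, dox replicate 1 was within 0.5 log2 units of the vehicle mean in 16, and dox replicate 2 was below both vehicle arrays in 13. Dox replicate 2 had covered 19.0% to 112% (median 67.0%) of the distance between dox replicate 1 and the dox plus E2 mean in these 16 genes. Over all 32 tested genes the median was also 67.0%, but dox replicate 1 enters both parts of this ratio. The ratio has little meaning where that distance is small, as for Ier3 (649%). Dox replicate 2 was nearer to dox plus E2 in 10 of the 16 genes, and within or below the dox plus E2 arrays in 3, Zfp36, Klf2 and Dusp1.

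The covered distance was 93.8% for Fos, 106% for Zfp36, 75.5% for Egr1 and 75.2% for Junb. It was 44.5% for Egr2 and 19.0% for Fosb. Fos had 7.27, 7.12 and 7.18 in E2 and 10.06 and 10.23 in vehicle, so the dox replicate 1 level of 10.41 lay near vehicle and the dox replicate 2 level of 7.52 near the arrays of slide 2.

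**Figure D3:**
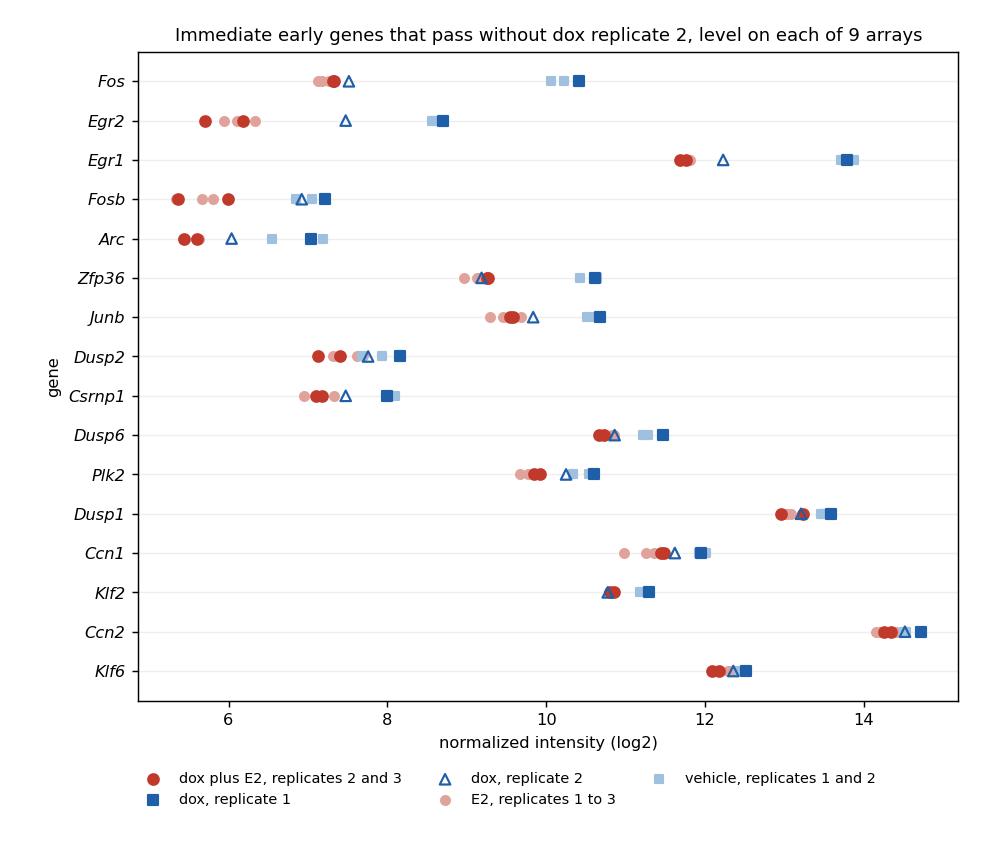
Level of the 16 immediate early genes that were lower in dox plus E2 than in dox replicate 1 alone (rows) on each of the 9 arrays, as log2 normalized intensity on the x axis; symbols are dark red circles for dox plus E2, a dark blue square for dox replicate 1, an open triangle for dox replicate 2 and pale symbols for E2 and vehicle. The square lies near the pale blue vehicle squares in each row, in genes whose choice favours a high dox replicate 1. The open triangle lies at 7.52 for Fos and 9.19 for Zfp36, beside the red circles.

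The other genes that fell were Errfi1, Klf7, Taf15, Tcf7l2 and Fndc3b. Errfi1, an inhibitor of the EGF receptor, had 10.34 and 10.55 in dox plus E2, against 11.24 and 11.18 in dox, a log2 change of -0.77 ± 0.09 (SE; limma adjusted p = 2.7e-05). Klf7, a Krüppel-like transcription factor, had 10.31 and 10.18 in dox plus E2, against 10.78 and 11.17 in dox, a change of -0.72 ± 0.11 (SE; limma adjusted p = 0.0011). Dox replicate 2 was the higher dox array for Klf7, the reverse of the immediate early genes.

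Taf15, an RNA-binding protein of the FET family, had 10.05 and 9.98 in dox plus E2, against 10.42 and 10.61 in dox, a change of -0.50 ± 0.10 (SE; limma adjusted p = 0.0347). Tcf7l2, a transcription factor of the canonical Wnt pathway, had 9.50 and 9.53 in dox plus E2, against 10.03 and 9.97 in dox, a change of -0.48 ± 0.10 (SE; limma adjusted p = 0.0412). A Tcf7l2 probe detected on 2 of the 9 arrays had a change of 0.42 and a further probe was below background on all. Fndc3b also passed, with a change of -0.38 ± 0.08 (SE; limma adjusted p = 0.0412); it lay outside the naming rule and is named after its value was seen.

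Glis1 and Dio3 were the genes that rose. Glis1, a Krüppel-like zinc finger transcription factor, had 8.61 and 8.72 in dox plus E2, against 7.71 and 8.04 in dox, a change of 0.79 ± 0.15 (SE; limma adjusted p = 0.0178). Dio3, the deiodinase that inactivates thyroid hormone, had 10.55 and 10.53 in dox plus E2, against 9.98 and 10.13 in dox, a change of 0.49 ± 0.10 (SE; limma adjusted p = 0.0291). In both, all dox plus E2 arrays were above all dox arrays.

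Which of these changes rested on dox replicate 2 was examined by leaving out each dox array in turn, with the lone remaining array assumed to vary like the other groups. Without dox replicate 2, 72 of 9490 genes passed (0.759%), 10 higher and 62 lower. Without dox replicate 1, 10 genes passed (0.105%), 0 higher and 10 lower; 719 genes (7.58%) had an unadjusted p under 0.05. A difference between the dox arrays widens the error of a gene when both are used, so a gene can pass against dox replicate 1 and fail with both.

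Of the 22 genes, 10 passed with either dox array alone: Myl2, Myl3, Mb, Actc1, Ankrd1, Cox7a1, Egr2, Egr1, Errfi1 and Klf7. Another 10 passed without dox replicate 2 and not without dox replicate 1: Cox8b, Myh6, Fabp3, Tnnc1, Lpl, Fosb, Plk2, Fndc3b, Dio3 and Glis1. Their adjusted p against dox replicate 2 alone in limma was 0.0597 for Cox8b, 0.0787 for Myh6, 0.102 for Fabp3 and 0.184 for Fosb, and 0.344 for each of Glis1 and Dio3. Taf15 and Tcf7l2 were the genes that passed with both dox arrays and not without dox replicate 2, and neither passed without dox replicate 1. Taf15 was -0.41 against dox replicate 1 and -0.59 against dox replicate 2, and Tcf7l2 -0.51 and -0.46. Leaving out an array can also widen the standard error, for Tcf7l2 from 0.10 to 0.13 without dox replicate 2. A lost call is therefore not always a smaller change.

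With either dox array left out, the log2 change stayed within 1.5 times that of both arrays for 21 of the 22 genes. This held for 14 of the 15 that were detected on all 9 arrays. Egr1 was the exception, at -2.06 ± 0.10 (SE) against dox replicate 1 and -0.50 ± 0.10 (SE) against dox replicate 2. The fit with both averages the dox arrays, so changes against each alone lay further apart. Against dox replicates 1 and 2, Plk2 was -0.72 and -0.37, Egr2 -2.76 and -1.53, and Klf7 -0.53 and -0.92. Of the 22, 5 were below background on both dox plus E2 arrays and their fold is a bound: Myl2 was at least 20.4-fold lower than dox replicate 1 and at least 13.1-fold lower than dox replicate 2. Glis1 was 0.95 ± 0.18 against dox replicate 1 and 0.62 ± 0.18 against dox replicate 2 (SE). Of the 8 heart and slow muscle genes that fell, 5 passed without dox replicate 1.

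A further 52 genes passed without dox replicate 2 and not with both dox arrays, 44 lower and 8 higher in dox plus E2. Among the 44, 12 were immediate early genes and 2, Csrp3 and Nppb, heart and slow muscle genes. Against dox replicate 2 the change of 32 of the 44 was under 50% of that against dox replicate 1, and 39 had the same sign. Dox replicate 1 was the highest array of the dox, E2 and vehicle arrays for 34 of the 44. The choice of these genes, which passed against dox replicate 1 alone and not with both dox arrays, favours a high dox replicate 1 and a smaller change against dox replicate 2, so these counts are a description.

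Fos was -3.09 ± 0.17 (SE; limma adjusted p = 4.67e-13) against dox replicate 1 and -0.19 ± 0.18 (SE; limma adjusted p = 0.840) against dox replicate 2. Zfp36 was -1.36 (limma adjusted p = 2.19e-07) against dox replicate 1 and 0.08 (limma adjusted p = 0.928) against dox replicate 2. Junb was -1.11 (limma adjusted p = 1.55e-05) against dox replicate 1 and -0.28 (limma adjusted p = 0.674) against dox replicate 2. In these genes the call rested on which dox array was used. Arc, an activity-regulated cytoskeletal gene, was -1.52 against dox replicate 1 and -0.52 against dox replicate 2, with both dox plus E2 arrays below background. Dusp2, another phosphatase of MAP kinases, was -0.90 against dox replicate 1 and -0.49 against dox replicate 2, and its second probe had a change of -0.05 with both dox arrays.

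Genes outside both lists also passed against dox replicate 1 alone. Pknox2, a homeobox transcription factor, was -1.0 against dox replicate 1 and -0.76 against dox replicate 2, and was close to the threshold with both arrays (limma adjusted p = 0.0646). Pidd1, a p53-induced death domain protein, was -1.0 and -0.41 against dox replicates 1 and 2. Bnc2, a zinc finger gene, was -1.31 and -0.34 as fitted, by a probe detected on 1 of the 2 dox plus E2 arrays. Its second probe, detected on all 9 arrays, had a change of -0.13 with both dox arrays.

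Among the 8 genes gained in the higher direction, dox replicate 1 was the lowest of the dox, E2 and vehicle arrays for 6, which their choice favours likewise. Edem1, which targets misfolded glycoproteins for degradation, had 7.12 and 6.84 in dox plus E2, against 5.09 and 6.78 in dox. As fitted it was 1.89 higher against dox replicate 1 and 0.20 against dox replicate 2 on the log2 scale. Edem1 was detected on 1 of the 2 dox arrays, so the larger value is no estimate of size. Its second probe was below background on all arrays. Surf1, an assembly factor of cytochrome c oxidase, and Rbbp7, a histone-binding protein, were 0.65 and 0.60 higher against dox replicate 1, and -0.05 and -0.08 against dox replicate 2. The other 5 were Larp4b, an RNA-binding protein, Srsf5, a splicing factor, Atp6v0d1, a subunit of the vacuolar proton pump, Wtip and BC030476. They were 0.42 to 1.14 higher against dox replicate 1 and 0.16 to 0.44 higher against dox replicate 2. With both dox arrays the Atp6v0d1 probe used had a change of 0.29, and its other probes, detected on all 9 arrays, 0.21, 0.17 and 0.02. The Srsf5 probe used had 0.35 and its second probe, also detected on all 9 arrays, 0.11. A second probe of Larp4b and one of BC030476 were below background on all 9 arrays.

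**Figure D4:**
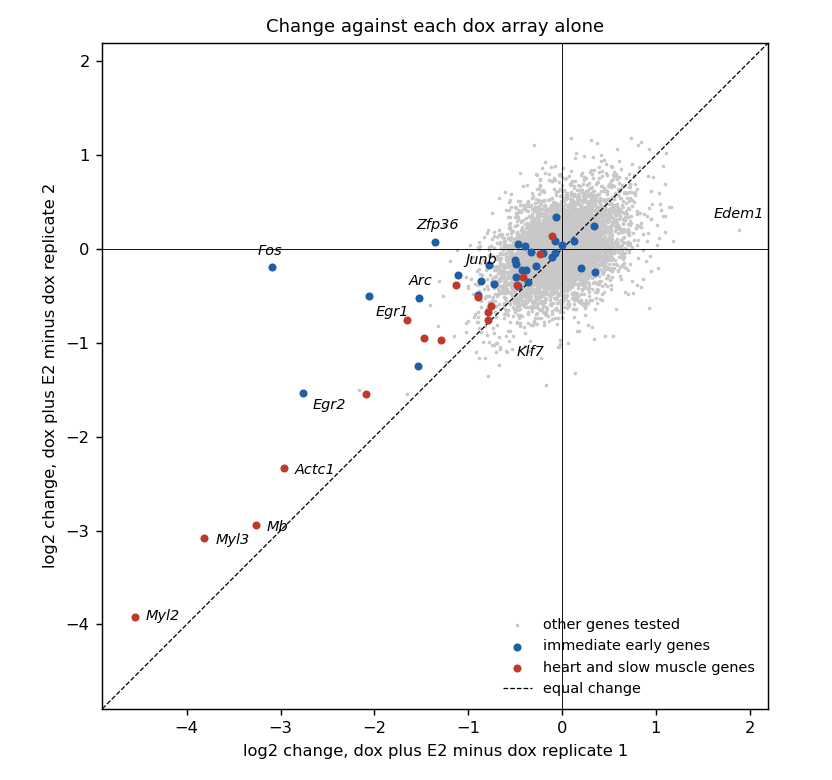
Log2 change of dox plus E2 minus dox replicate 1 (x axis) against dox plus E2 minus dox replicate 2 (y axis) for the 9490 genes; the dashed line marks equal change. The heart and slow muscle genes Myl2, Myl3, Mb and Actc1 lie near the line, at fitted values that for dox plus E2 levels below background are no estimate of size, while Fos at -3.09 and -0.19 and Zfp36 at -1.36 and 0.08 lie far above it.

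The same hormone and slide difference was measured without dox, as E2 against vehicle. There 138 genes passed (1.45%), 59 higher (0.622%) and 79 lower (0.832%). All 22 genes had the same sign in E2 against vehicle, 14 of them passed there, and among the 15 detected on all 9 arrays the change was larger with dox for 11. The 22 genes were chosen by their change with dox, which favours a larger change there, so this last count is a description. For each of the 22, the 5 arrays of slide 2 lay on one side of the 4 arrays of slide 1, as they did for 610 of all genes (6.43%). Across all 9490 genes the changes with and without dox had a Pearson r of 0.39 and a Spearman rho of 0.29; genes are not independent replicates and both changes share the slide pair. Against dox replicate 1 alone r was 0.38, and against dox replicate 2 alone 0.28.

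Myl2, at least 16.4-fold lower with dox and below background on both dox plus E2 arrays, was detected on all 3 E2 arrays, with 6.19, 6.50 and 7.65 in E2 and 9.69 and 9.47 in vehicle, a log2 change of -2.80. Cox7a1, detected on all 9 arrays, was -1.60 with dox and -0.68 without. Egr2 was -2.15 with dox and -2.44 without, Egr1 -1.28 and -2.05, and Fos -1.64 and -2.96. The values with dox average in dox replicate 2, which was low in these genes. Against dox replicate 1 alone Egr2 was -2.76, Egr1 -2.06 and Fos -3.09, and against dox replicate 2 alone -1.53, -0.50 and -0.19. Errfi1 was -0.77 with dox and -0.89 without.

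The difference of these changes was tested as an interaction, in which a slide effect common to every array of that slide cancels. Limma called 0 of 9490 genes, with a lowest adjusted p of 0.531 and 652 genes (6.87%) at an unadjusted p under 0.05. Among the 22 genes, whose choice by the change with dox favours a difference, 7 had an unadjusted p under 0.05. Of these, Cox7a1, Egr1, Fndc3b and Klf7 were detected on all 9 arrays, and Cox7a1 had a difference of -0.92 ± 0.27 (SE; 95% interval -1.48 to -0.36; limma adjusted p = 0.638). The other 3 were Myl2, Mb and Myl3, which were below background on 1 or both dox plus E2 arrays, so that no size of their difference is given. The intervals do not show that the changes were alike with and without dox. Without dox replicate 1 the difference was 2.76 for Fos, 1.54 for Egr1, 1.53 for Zfp36 and 0.67 for Ier3. The lone dox array of that fit was replicate 2, known beforehand for low immediate early genes. These values therefore describe that array and test nothing.

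**Figure D5:**
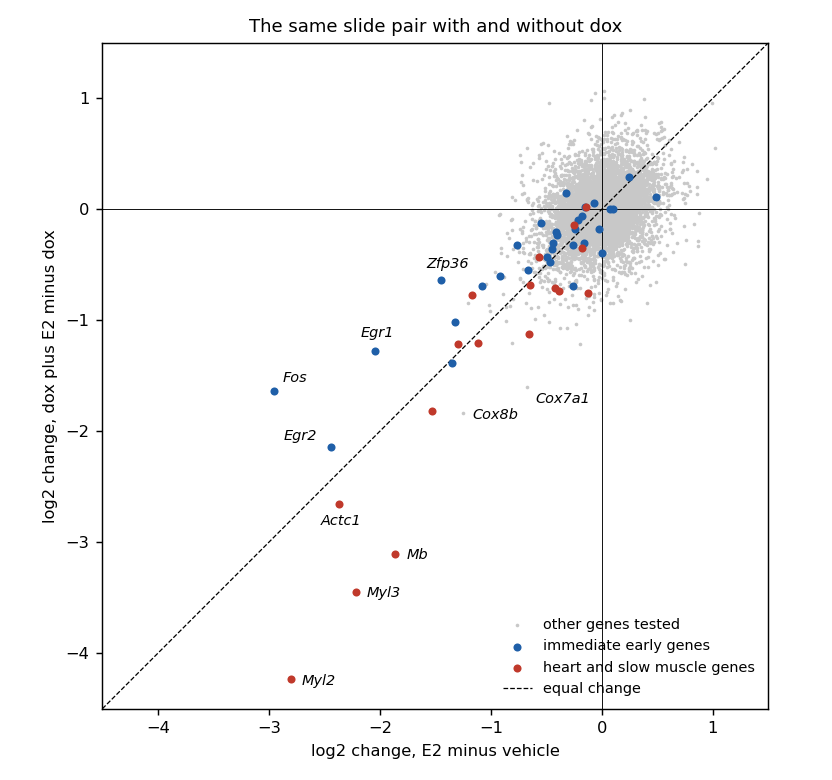
Log2 change of E2 minus vehicle (x axis) against log2 change of dox plus E2 minus dox (y axis) for the 9490 genes; the dashed line marks equal change. The muscle genes Myl2, Myl3 and Mb lie below the line as fitted, with dox plus E2 levels below background on 1 or both arrays. Fos, Egr1 and Zfp36 lie above the line, with a dox mean that includes dox replicate 2, which was low in these genes.

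Osteoblast genes and factors that act on osteoclasts did not pass. Of 26 listed genes of osteoblast matrix and mineralisation, 16 were tested and 0 passed in limma, with a median change of 0.09; Sp7 and Mepe were higher and Col1a1 lower at an unadjusted p under 0.05. Alpl, the alkaline phosphatase of mineralising osteoblasts, had 8.15 and 8.22 in dox plus E2, against 7.91 and 7.94 in dox, a change of 0.26 ± 0.19 (SE; limma adjusted p = 0.661). Sp7, the osteoblast transcription factor osterix, had 9.45 and 9.50 in dox plus E2, against 9.16 and 9.14 in dox, a change of 0.32 ± 0.12 (SE; 95% interval 0.07 to 0.58; limma adjusted p = 0.324). The arrays of both genes did not overlap, as for 39.7% of genes. Bglap2, an osteocalcin gene, had a change of 0.11 ± 0.26, Spp1 (osteopontin) of -0.11 ± 0.09 and Col1a1, the main bone collagen, of -0.14 ± 0.07 (SE).

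Of 26 osteoclast-regulating factors, 15 were tested and 0 passed in limma, with a median change of -0.02; Wnt5a and Sema3a were lower at an unadjusted p under 0.05. Tnfsf11, the osteoclast-inducing ligand RANKL, had 8.76 and 8.79 in dox plus E2, against 9.10 and 8.99 in dox, a change of -0.27 ± 0.14 (SE; 95% interval -0.56 to 0.02; limma adjusted p = 0.499). Tnfrsf11b, its decoy receptor osteoprotegerin, had 11.35 and 11.27 in dox plus E2, against 11.22 and 11.11 in dox, a change of 0.14 ± 0.09 (SE; 95% interval -0.05 to 0.33; limma adjusted p = 0.607). Csf1, a growth factor of osteoclast precursors, had a change of 0.00060 ± 0.08 (SE; limma adjusted p = 0.998).

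Esr1, the gene of oestrogen receptor alpha, and the oestrogen targets Pgr and Greb1 were below background on all 9 arrays. Of 37 listed oestrogen response genes, 21 were tested and 0 passed in limma, with a median change of -0.01. At an unadjusted p under 0.05 were C3, a complement component, with a change of 0.62 ± 0.29, and Igfbp5, an IGF binding protein, with one of -0.28 ± 0.12 (SE). Of 50 cell cycle genes, 34 were tested and 0 passed in limma, with a median of -0.01; at an unadjusted p under 0.05 were Foxm1 (-0.42), Mcm6 (-0.39) and Bub1b (0.49).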

How the data were processed

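Members, lists and tests were chosen with earlier results of these data known. The deposited table holds a bead signal per probe, a linear intensity with no scaling between arrays, and a detection p-value, with GenomeStudio 2011.1 named in the submitters' processing notes; genome build and replicate pooling are not given in the sources used here. A second deposited table of the authors holds quantile normalized intensity on a linear scale, not centred per gene (medians of 152.7 to 153.0 an array), matched within 0.512% by a quantile normalization of the signals.

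Background correction, quantile normalization and log2 transformation with offset 16 used neqc (limma 3.58.1, R 4.3.3), which shrinks changes of dim probes and hides a shift of most genes. A probe was kept where 2 or more arrays had a detection p under 0.05 (12912 probes), and the brightest stood for its gene (7042 genes had 1 kept probe, 2448 several). Symbols were updated with RefSeq: 20733 probes had a current symbol, 3872 were renamed and 1092 kept theirs. Limma fitted a mean per group over all 9 arrays with an intensity trend, with two-sided moderated tests and Benjamini-Hochberg adjustment. The procedure was tested on simulated data. Intervals are at 95%, and the number of arrays limits precision.

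Named were the 15 largest rises and falls among genes that passed without overlap, up to 4 members of each list by p, the genes lost or gained without dox replicate 2 (up to 8 and 10 each way) and a fixed set (Runx2, receptors, osteoblast, osteoclast and early genes); other genes were named after their values were seen. Same-numbered arrays of different groups had deviations that correlated at -0.11 to 0.03, and differently numbered arrays at -0.12 to 0.12, so no pairing by number was used. In a group of 2 arrays the deviations mirror each other, so these values cannot show whether samples were paired. Beside the main setting, 11 processing alternatives and 9 fits without 1 array were run. Figures used matplotlib 3.10.9 in Python 3.11.15.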

Additional observations from a re-analysis of the deposited data

How the results depend on the processing

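The counts of 2 higher and 20 lower genes depended on the processing. No gene was higher without a detection filter, without the intensity trend or with the replicate number as a block (0 each), and 1 was with detection on all 4 arrays compared. Lower were 9 genes with detection on all 4 arrays, where 15 of the 22 were tested, 6 without the trend and 12 with the block. The replicate numbers of dox and dox plus E2 share only number 2, and whether they pair samples is not known. The 12 genes of the block fit were all among the 22. Leaving out 1 array gave 0 to 10 higher and 10 to 62 lower genes. Higher genes were 10 without dox replicate 2, 4 without E2 replicate 1, 1 without either vehicle array or dox plus E2 replicate 2, and 0 without dox replicate 1 or dox plus E2 replicate 3. Lower genes were 62 without dox replicate 2, 34 without E2 replicate 1, 13 without dox plus E2 replicate 2, and 10 without dox replicate 1 or dox plus E2 replicate 3. The interaction gave 0 genes in every setting where it was fitted except without dox replicate 1. There the lone dox array was replicate 2, which had low immediate early genes. The cause of these changes was not tested. In all settings where they were tested Myl2, Myl3, Mb, Actc1 (19 settings each) and Cox7a1 (20 settings) passed; Egr2, Errfi1 and Ankrd1 missed in 1 of 20, without the trend. Fndc3b passed in 4 of 20, Tcf7l2 in 5 and Plk2 in 8. Of the 22, all kept their sign wherever tested.

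Signs turned in genes that did not pass. Csf1 was -0.065 with the block and Col1a1 0.0016 with median scaling. Over the fits without 1 array, Bglap2 ranged from -0.039 to 0.26, Csf1 from -0.074 to 0.075, Ier3 from -0.063 to 0.35, Spp1 from -0.24 to 0.022, Rbbp7 from -0.082 to 0.60, Surf1 from -0.051 to 0.65 and Zfp36 from -1.36 to 0.076. Slide and E2 cannot be told apart under any of these settings.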

Other observations

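In the other gene lists, few or no genes of dox plus E2 against dox passed, and the following members were chosen after their values were seen. Of 23 tested p53 targets, Plk2 fell, against 0.211% of all genes, with a median of -0.10 on the log2 scale. At an unadjusted p under 0.05, 8 of the 23 were lower, against 5.99% of all genes. Gadd45a, a growth arrest gene, had a change of -0.40 ± 0.09 (SE; limma adjusted p = 0.0631), Ccng1, cyclin G1, of -0.28 and Mdm2, the p53 ubiquitin ligase, of -0.21, while Bbc3, the apoptosis gene Puma, had one of 0.30. Against dox replicate 2 alone Gadd45a was -0.39 and Ccng1 -0.28. Of 34 tested histones 0 passed in limma and 7 were higher at an unadjusted p under 0.05, against 4.86% of all genes, with a median of 0.08. H3c7 had 6.53 and 6.53 in dox plus E2, against 5.80 and 5.34 in dox, a fitted change of 0.96 ± 0.27 (SE, limma adjusted p = 0.148). Its lower dox level was similar to levels that were below background in other genes, so this size is uncertain. Of 20 tested collagens 0 passed and 5 were lower at an unadjusted p under 0.05, against 5.99% of all genes (Col4a2, Col2a1, Col6a1, Col4a1 and Col1a1), with a median of -0.12; Col4a2 had a change of -0.32 ± 0.08 (SE; limma adjusted p = 0.0983).

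Of 39 tested BMP and TGF-beta genes 0 passed, 8 were lower and 2, Acvr2b and Smad6, higher at an unadjusted p under 0.05, against 5.99% lower and 4.86% higher of all genes, shares that also stand against the counts below, and the median was -0.04. Id1, a BMP target, had 9.75 and 9.90 in dox plus E2, against 10.24 and 10.39 in dox, a change of -0.49 ± 0.11 (SE; limma adjusted p = 0.0723). Of 24 Wnt genes Tcf7l2 fell, against 0.211% of all genes, with a median of -0.06. Wnt5a, a noncanonical Wnt ligand, had a change of -0.60 ± 0.15 (SE; limma adjusted p = 0.0917). Of 28 serum response factor and actin genes Actc1 and Ankrd1 fell, against the same 0.211%, with a median of -0.07. Both are also in the heart and slow muscle list. At an unadjusted p under 0.05 in limma, 7 of the 28 were lower and 2 higher. Of 23 cholesterol and fatty acid synthesis genes 0 passed and 3 were higher and 2 lower at an unadjusted p under 0.05, with a median of 0.08; Fasn, the fatty acid synthase, had a change of -0.88 (limma adjusted p = 0.148). Of 27 stress and unfolded protein response genes 0 passed, with a median of -0.07; Edem1 was higher and 5 genes, Hsp90b1 among them (-0.36), lower at an unadjusted p under 0.05. In heat shock (15 tested), inflammatory (14), interferon (17), matrix protease (30), hypoxia and glycolysis (25), mitochondrial ribosomal (67), and glucocorticoid and clock genes (17), 0 passed in each, 1 to 4 genes of each had an unadjusted p under 0.05, and the medians lay between -0.12 and 0.03. Markers of chondrocytes (9 tested), macrophages and osteoclasts (6), endothelium (4) and keratinocytes (3) also had 0 genes passed in limma, with Col2a1 of the chondrocyte markers at an unadjusted p under 0.05 (-0.23), and 0 of 7 red blood cell markers were tested.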
